A study of Eulimnogammarus verrucosus and Eulimnogammarus cyaneus and Gammarus lacustris with 24 samples.

Results

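Gammarus lacustris is a freshwater amphipod crustacean that is widespread across northern lakes. It was compared here at 1.5 and 12 °C by RNA sequencing of whole bodies. The libraries were chosen by their labels as those of G. lacustris at either temperature, which gave 8 of the 24 libraries of the study, 4 per temperature. Wild adults taken near the shore of Lake Baikal, per the labels, were held at 6 °C for 14 days, brought to 1.5 or 12 °C over about 6 days and kept there for 1 month. No strain, sex or genotype was given. Each library was a pool of about 11 animals, so p-values measure the spread between pools, and the mix of organs and of anything carried in or on the animals enters every value. The study also sequenced the Baikal endemics Eulimnogammarus verrucosus and Eulimnogammarus cyaneus on the same scheme, with pools of 3 and about 13 animals. The comparison asks which transcripts of the widespread species differ in level between cold and warm animals.

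Amphipods are ectotherms, and lasting cold slows enzymes, stiffens membranes and destabilises some protein complexes. In many ectotherms, long cold exposure is known to change transcripts for protein folding, ribosome assembly, membrane lipids and energy metabolism. The CCT chaperonin is a ring that folds actin and tubulin, and ribosome assembly factors act in the nucleolus to build new ribosomal subunits.

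The 8 libraries held 8501852 to 10176542 estimated counts on 61366 assembled transcripts, and the 10 most abundant transcripts took 12.9 to 17.1% of a library. A filter on low counts left 27194 transcripts for testing, and 2051 of these carried a gene name. The 5094 gene names of the authors' deposited table were joined to transcripts through equal mean normalised counts, which paired 3242 names (63.6%). Named transcripts took up 4.66 to 5.03% of each library, so gene groups describe that share only. Expression is given as CPM, in which every library is brought to the same total after TMM scaling (a trimmed mean of ratios between libraries). A positive log2 fold change means a higher level at 1.5 °C than at 12 °C. Unless stated otherwise, tests are quasi-likelihood tests in edgeR, with Benjamini-Hochberg adjusted p over the 27194 transcripts and a threshold of 0.05 (n = 4 pools per temperature). Isoforms and close relatives can share reads, so a value for a single member of such a family is uncertain.

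Muscle and yolk genes of whole animals were present in both groups. Mhc1, a myosin heavy chain, stood at 1619 ± 1025 CPM (SD) at 12 °C and 1791 ± 213 CPM at 1.5 °C. In the authors' deposited table the yolk precursor Vg had a mean of 11290 normalised counts and did not pass (log2 fold change 0.59, adjusted p = 0.128).

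The fold changes formed 2 separate peaks. In bins of 0.5 on the log2 scale, 3018 transcripts fell in the bin centred at −2.75 and 6584 in the bin centred at 0.25, with only 498 in the bin at −1.25 between them. Transcripts at or below −1.25 are called the lower peak here and the others the upper peak. The fold change itself chose these sets, so counts of calls within them are a description. The values nearest the limit were −1.25003 and −1.24994, and 498 transcripts lay within 0.25 of it.

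**Figure D1:**
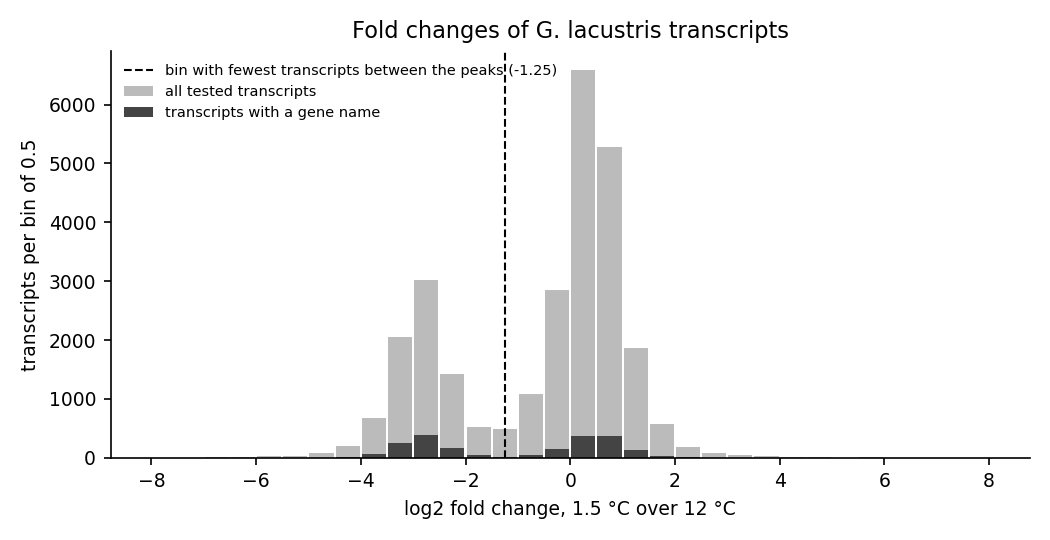
Number of tested G. lacustris transcripts in each bin of 0.5 of log2 fold change (1.5 °C over 12 °C), for all transcripts (light) and those with a gene name (dark). The bin at −1.25 holds 498 transcripts, against 3018 and 6584 at the peaks.

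The lower peak held 8286 transcripts (30.5% of those tested) with a median log2 fold change of −2.83 and quartiles of −3.19 and −2.48. The upper peak held 18908 transcripts with a median of 0.41 and quartiles of 0.06 and 0.77. Median transcript length was 1186.5 bases in the lower peak and 1389 bases in the upper peak. Gene names were attached to 11.4% of lower-peak and 5.85% of upper-peak transcripts. The median lower-peak level was 5.73 CPM at 12 °C and 0.771 CPM at 1.5 °C, so the lower peak was near the upper-peak level of 5.40 CPM in warm animals and far below its 7.33 CPM in cold ones.

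Lower-peak transcripts made up 23.03, 13.6, 16.7 and 12.4% of the counts of the 4 pools at 12 °C. At 1.5 °C they made up 3.49, 3.82, 2.77 and 2.98%. Every warm pool lay above every cold pool, and the warm pools also differed among themselves far beyond the Wilson 95% interval of each share, the widest of which ran from 23.01 to 23.06%. These intervals cover counting error only.

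**Figure D2:**
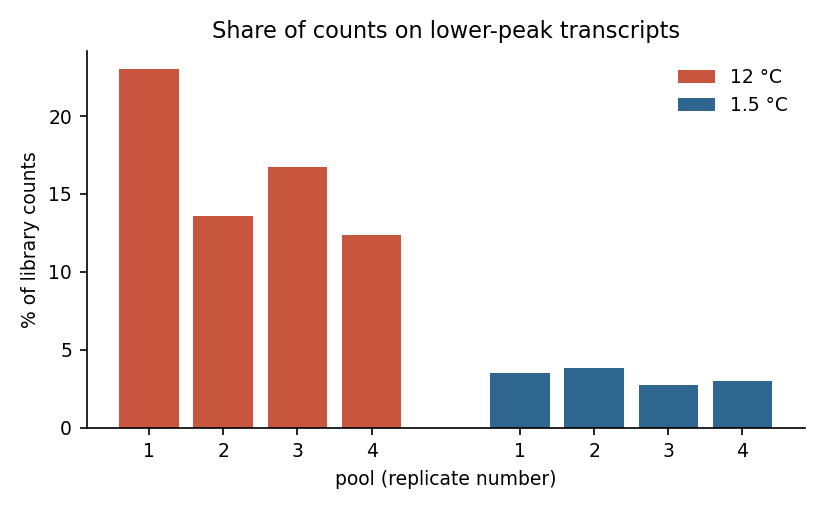
Share of each library's counts (%) on lower-peak transcripts, 1 bar per pool and replicate number, with 12 °C in red and 1.5 °C in blue. The 4 warm pools lie between 12.4 and 23.03% and the 4 cold pools between 2.77 and 3.82%.

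Within the warm group the lower peak moved as a block. In replicate 1 at 12 °C, lower-peak transcripts had a median 1.06 log2 units above the mean of the other 3 warm pools, while upper-peak transcripts had a median 0.27 units below it (a difference of −0.27). Replicate 4 went the other way, at −0.73 for the lower and 0.20 for the upper peak. Replicate 1 was the highest of the warm pools for 87.1% of lower-peak and 24.6% of upper-peak transcripts. Without replicate 1 at 12 °C the peaks remained, at −2.25 and 0.25.

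The study kept assembled transcripts that matched animal sequences, a step that does not separate the amphipod from any other animal. The lower peak is therefore treated as possibly not amphipod RNA. Its source was not tested, and fewer cells or organisms of a kind and less RNA in each cannot be told apart in these whole-body pools. Proteins of the axoneme and cilium, a list put together after the values were seen, had 27 of 29 tested transcripts in the lower peak (93.1%), where all named transcripts had 46%. That share says nothing of the source, since the values were known when the list was made and the peak is cut on the fold change. The summed level of this list was 232 to 496 CPM in the warm pools and 40.2 to 48 CPM in the cold ones. Only WDR34 and KIF3A, parts of the transport machinery along microtubules, lay in the upper peak.

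Across all transcripts 39.8% passed the test, with 2639 higher at 1.5 °C (9.7%) and 8185 lower (30.1%). The lower peak supplied 8020 of the lower calls, and the upper peak supplied all 2639 higher calls (14.0% of it) and 165 lower ones (0.873%). Among named transcripts 9.8% were higher and 45.2% lower. Because the lower peak takes a different share of each library, the choice of scaling sets the balance within the upper peak. Factors taken from upper-peak transcripts alone, a choice made after seeing the fold changes and by the outcome, moved the upper-peak median from 0.41 to −0.02. They gave 741 higher and 731 lower calls in the upper peak, or 3.92 and 3.87% of it, and over all transcripts 2.72% higher and 32.5% lower, 35.2% in all. With the lower peak left out altogether, 264 transcripts were higher and 282 lower out of 19271 tested (1.37 and 1.46%, 2.83% in all). This second scale is called upper-peak scaling, and values on it are given for the upper-peak genes described below.

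Named upper-peak transcripts higher in the cold included CCT5, GNL2, WDR74, RPS27L, SESN1 and CEBPA. CCT5, a subunit of the CCT chaperonin, was at 140, 189, 140 and 202 CPM in the 4 warm pools and at 483, 452, 620 and 490 CPM in the 4 cold pools. The groups did not overlap, as was the case for 43.9% of all transcripts tested. The log2 fold change was 1.61 (SE 0.22, adjusted p = 0.000397), and it was 1.18 under upper-peak scaling (adjusted p = 0.000878). Of the 5 CCT names that the authors' deposited table holds, 2 were higher, CCT5 and CCT6A (log2 fold change 1.97, SE 0.30), and 2 lower, CCT2 and the scarce cct8 (−4.48, SE 1.42), while CCT3 was listed at a mean under 1 normalised count with no adjusted p. The upper peak of fold changes in that table stood in the bin at 1.25, against 0.25 on the TMM scale. CCT2, another subunit, lay in the lower peak instead, falling from 26 ± 12.4 to 4.13 ± 1.09 CPM, a log2 fold change of −2.64 (SE 0.37, adjusted p = 0.000447).

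GNL2, a nucleolar GTPase needed to assemble the large ribosomal subunit, was at 48.5, 45.5, 54.6 and 67.5 CPM at 12 °C and at 150, 136, 136 and 141 CPM at 1.5 °C. Every cold pool was above every warm pool, and the log2 fold change was 1.38 (SE 0.20, adjusted p = 0.000522), or 0.95 under upper-peak scaling (adjusted p = 0.00222). WDR74, another factor of large-subunit assembly, rose from 25.8 ± 3.20 to 62.0 ± 4.35 CPM (adjusted p = 0.000699), with a log2 fold change of 0.83 under upper-peak scaling (adjusted p = 0.00712). In the ribosome biogenesis list, 15 of 42 tested transcripts were higher, 18 lower and 9 did not pass. Over all named transcripts 9.8% were higher and 45.2% lower. All 18 lower ones of the list were in the lower peak. The 15 higher ones were among its 24 in the upper peak, where 201 of all 1107 named transcripts were higher. Under upper-peak scaling 3 of these 24 were still higher, beside 48 of the 1107.

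RPS27L, a ribosomal protein relative induced by p53 in mammals, was at 10.6, 29.2, 36.9 and 44.2 CPM in warm pools and at 157, 130, 141 and 150 CPM in cold pools. The log2 fold change was 2.26 (SE 0.38, adjusted p = 0.000854). It was 1.86 under upper-peak scaling (adjusted p = 0.00134). Its lowest warm pool was replicate 1, the pool with the largest lower-peak share.

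SESN1, a sestrin that restrains TOR signalling in mammals and flies, was at 1.19, 1.22, 0.453 and 2.10 CPM in warm pools and at 6.45, 6.57, 6.74 and 6.07 CPM in cold pools. The cold pools were tightly grouped, and the log2 fold change was 2.32 (SE 0.42, adjusted p = 0.00125), or 1.92 under upper-peak scaling. CEBPA, a transcription factor of the C/EBP family, rose from 13.9 ± 4.65 to 54.4 ± 15.8 CPM, a log2 fold change of 1.97 (SE 0.31, adjusted p = 0.000693), or 1.56 under upper-peak scaling. NFKB1, a transcription factor of immune signalling, rose from 3.55 ± 1.74 to 9.43 ± 1.43 CPM, a log2 fold change of 1.39 (SE 0.37, adjusted p = 0.0107). It was 0.99 under upper-peak scaling (adjusted p = 0.0477), and the call was lost with the lower peak left out (adjusted p = 0.147). SOX10, named for a developmental transcription factor, rose from 0.741 ± 0.526 to 5.07 ± 0.603 CPM, a log2 fold change of 2.68 (adjusted p = 0.00156), or 2.29 under upper-peak scaling.

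Splicing and metabolic genes were among the higher ones too. snrpd2, a core protein of the spliceosome, was at 3.04, 8.43, 9.39 and 8.49 CPM at 12 °C and at 27, 26.6, 24.6 and 23.2 CPM at 1.5 °C (log2 fold change 1.78, SE 0.34, adjusted p = 0.00162). SLC25A36, a mitochondrial carrier of pyrimidine nucleotides, rose from 14.6 ± 1.54 to 36.7 ± 4.61 CPM, a log2 fold change of 1.33 (SE 0.22, adjusted p = 0.000779). BCAT1, which transfers the amino group of branched-chain amino acids, rose from 6.62 ± 1.98 to 19.4 ± 1.80 CPM in 1 of its 2 transcripts (log2 fold change 1.54, adjusted p = 0.00119). WDR77, a partner of an arginine methyltransferase, rose from 6.44 ± 0.428 to 16.6 ± 2.01 CPM. Under upper-peak scaling the log2 fold changes were 1.38 for snrpd2, 0.90 for SLC25A36, 1.12 for BCAT1 and 0.92 for WDR77, and all 4 passed.

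The other named transcripts with large rises were CDK3 (log2 fold change 2.42), CNIH4 (1.85), LRRFIP2 (1.75), PAN3 (1.66), HNRNPLL (1.61) and LENG9 (4.37). Under upper-peak scaling these were 2.04, 1.42, 1.34, 1.25, 1.22 and 4.04 in the same order, and all 6 passed. The LRRFIP2 values are for 1 of its 3 transcripts. Summed over them for the comparison of species, the name had a log2 fold change of only 0.47 in G. lacustris. With the lower peak left out, LRRFIP2 passed (adjusted p = 0.0486) and the calls were lost for CDK3 (0.0521), LENG9 (0.0604), PAN3 (0.104), CNIH4 (0.108) and HNRNPLL (0.154). LENG9 was uneven in the cold pools, at 28.3, 115, 5.69 and 11.4 CPM, against 0.661 to 2.96 CPM in warm pools. PTGES3, a co-chaperone of HSP90, rose from 321 ± 39.5 to 695 ± 112 CPM, a log2 fold change of 1.11 (SE 0.20, adjusted p = 0.00123). It was 0.68 under upper-peak scaling (adjusted p = 0.0156), and the call was lost with the lower peak left out (adjusted p = 0.077).

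Hspa1a, named for an HSP70, had 0 counts in all 4 warm pools in its more abundant transcript and 21.6, 9.53, 1.74 and 2.57 CPM in the cold pools. It passed the filter through the cold pools alone, and replicate 1 held most of its signal. The name HSPA1A, far more abundant in the authors' deposited table with a mean of 1598 normalised counts, had a log2 fold change of 1.57 there. The upper peak of that table stood in the bin at 1.25. TMEM194A had 0 counts in the warm pools in 1 of its 2 transcripts and 93 over the cold pools, and passed the filter through the cold pools alone. Set against an assumed floor of 3 counts over the warm group, it was 30.2-fold higher at 1.5 °C, a value that leaves out the spread between pools. These genes and several others named here were chosen after their values were seen. In the heat shock list 4 of 20 tested transcripts were higher, 8 lower and 8 did not pass, beside 9.8% higher and 45.2% lower over all named transcripts. All 8 lower ones, such as the mitochondrial HSP70 gene HSPA9 and the co-chaperone ST13, were in the lower peak.

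**Figure D3:**
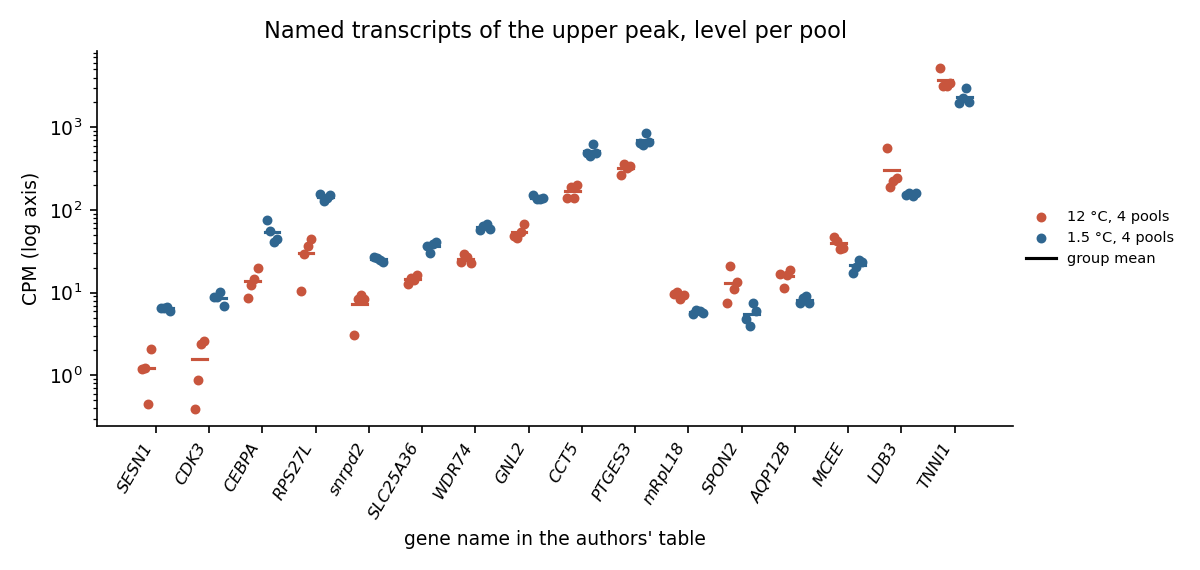
Level in CPM (log axis) of named upper-peak transcripts in each of the 4 pools at 12 °C (red) and 1.5 °C (blue), with a bar at each group mean. From SESN1 to PTGES3 all cold pools lie above all warm pools, and at mRpL18, AQP12B, MCEE, LDB3 and TNNI1 all cold pools lie below all warm pools, while the groups overlap at SPON2.

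Few named upper-peak transcripts were lower in the cold on the TMM scale, 6 in all, and 44 were under upper-peak scaling. MCEE, a step in breaking down odd-chain fatty acids and some amino acids, was at 47.5, 42.5, 33.9 and 34.2 CPM at 12 °C and at 17.1, 20.4, 24.6 and 23.3 CPM at 1.5 °C. The groups did not overlap, and the log2 fold change was −0.89 (SE 0.23, adjusted p = 0.00946). AQP12B, an aquaporin, fell from 15.8 ± 3.21 to 8.17 ± 0.759 CPM, a log2 fold change of −0.95 (SE 0.26, adjusted p = 0.0118). SPON2, a secreted matrix protein, fell from 13.2 ± 5.67 to 5.55 ± 1.57 CPM, a log2 fold change of −1.25 (SE 0.37, adjusted p = 0.0187), with groups that overlapped. The call on AQP12B was lost without any single cold pool (adjusted p up to 0.103). That on MCEE was lost without cold pool 1 or 2 or warm pool 2 (up to 0.099), and that on SPON2 without cold pool 1, 2 or 4 or warm pool 2 (up to 0.112). None of the 3 passed in the authors' deposited table. Under upper-peak scaling the log2 fold changes were −1.34 for MCEE, −1.38 for AQP12B and −1.67 for SPON2, and all 3 passed. mRpL18, of the mitochondrial ribosome, was at 9.39 ± 0.666 and 5.88 ± 0.329 CPM with an adjusted p of 0.0532, and passed under upper-peak scaling (log2 fold change −1.10, adjusted p = 0.00488).

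Muscle genes were split by peak and did not move together. TNNI1, the inhibitory subunit of troponin, had a transcript at 5243, 3143, 3146 and 3412 CPM in warm pools and 1958, 2244, 2965 and 2034 CPM in cold pools. All cold pools were lower, with a log2 fold change of −0.70 (SE 0.24, adjusted p = 0.0402). LDB3, a protein of the muscle Z-disc, fell from 302 ± 170 to 155 ± 6.71 CPM in its more abundant transcript (log2 fold change −0.97, SE 0.33, adjusted p = 0.0377). The LDB3 call was lost without any single cold pool (adjusted p up to 0.131), and the TNNI1 call held only without cold pool 3 or warm pool 3 and was lost without each other pool (up to 0.229). The authors' deposited table gave log2 fold changes of 0.05 for TNNI1 and −0.10 for LDB3, neither of which passed. Under upper-peak scaling they were −1.16 for TNNI1 and −1.45 for LDB3, and both calls were lost with the lower peak left out (adjusted p = 0.066 and 0.0917). Mhc1 was at 306, 2728, 1425 and 2017 CPM in warm pools and 1833, 1743, 2050 and 1537 CPM in cold pools, with a log2 fold change of 0.15 (SE 0.49) that did not pass and was −0.24 under upper-peak scaling and −0.17 without warm pool 1. Its replicate 1 at 12 °C was the lowest of the 8 pools.

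Other muscle names lay in the lower peak at much lower levels. TNNT2, the troponin subunit that binds tropomyosin, fell from 56.4 ± 15.7 to 6.17 ± 2.20 CPM, a log2 fold change of −3.18 (adjusted p = 0.000228). ACTC1, an actin, fell from 37.3 ± 17.1 to 5.90 ± 1.04 CPM (−2.65, adjusted p = 0.000375). unc-15, a paramyosin, fell from 14.3 ± 4.82 to 1.24 ± 0.644 CPM (−3.47, adjusted p = 0.000325). In the whole list 9 of 17 tested transcripts were lower, 0 higher and 8 did not pass (45.2% of all named transcripts were lower), and 7 of the 17 were in the lower peak. The list's summed level was 5956 to 7252 CPM in warm and 4517 to 6354 CPM in cold pools.

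The largest falls among named transcripts all belonged to the lower peak. RRM1, the large subunit of ribonucleotide reductase, was at 156, 61.1, 89.7 and 41.7 CPM in warm pools and 6.17, 9.09, 4.53 and 5.13 CPM in cold pools (log2 fold change −3.79, SE 0.44, adjusted p = 0.000289). Replicate 1 was again the highest warm pool. RpL36A, a protein of the large ribosomal subunit, differed from that pattern at 75.4, 83.9, 82.8 and 60.7 CPM in warm pools, with 4.18 to 6.16 CPM in cold pools (log2 fold change −3.79, SE 0.25, adjusted p = 5.03e-05). Moxd2, named for a copper monooxygenase, fell from 25 ± 5.88 to 1.50 ± 0.676 CPM (−4.01, adjusted p = 0.000186).

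The others with the largest falls were STOM (log2 fold change −3.88), LGALS4 (−3.85), AK9 (−3.69), OGDHL (−3.68), PTP4A3 (−3.68), EFHC2 (−3.63), 26-29-p (−3.63), MNS1 (−3.62) and RTN1 (−3.56). AK9, EFHC2 and MNS1 are known from cilia and flagella. RSPH4A, a part of the radial spoke of motile cilia, fell from 28.4 ± 8.86 to 3.62 ± 0.353 CPM (−2.95, adjusted p = 0.000209). For the axonemal dynein heavy chains DNAH7 and DNAH12, the authors' deposited table gave log2 fold changes of −3.0 (SE 0.36) and −4.02 (SE 0.46). kif3c, a kinesin motor, had 0 counts in all cold pools and 107 over the warm pools, and passed the filter through the warm pools alone. Set against an assumed floor of 3 counts over the cold group, it was 36.6-fold higher at 12 °C, a value that leaves out the spread between pools.

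Names of mitochondrially encoded subunits, which in each animal are transcribed from a single small genome, were split between the peaks. Whether these transcripts come from the same genome was not tested. ND5, of respiratory complex I, fell from 1821, 503, 856 and 440 CPM in warm pools to 69.2, 105, 72.0 and 75.4 CPM in cold pools (log2 fold change −3.49, SE 0.46, adjusted p = 0.000357). It lay in the lower peak, which is treated as possibly not amphipod RNA. COX3 was at 12.5 ± 4.69 and 18.7 ± 10.0 CPM and ND4L at 7.80 ± 4.08 and 11.9 ± 4.87 CPM, both in the upper peak, and neither passed. In the authors' deposited table COX3 (log2 fold change 1.24) and ND4L were called higher, COX1 had a log2 fold change of −2.0 (SE 0.37) and ND2 one of 1.42 (SE 0.42), and ND1 (−0.55) and CYTB (−0.28) did not pass. The values of COX3, ND4L and ND2 all fell in the bin at 1.25, where the upper peak of that table stood.

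**Figure D4:**
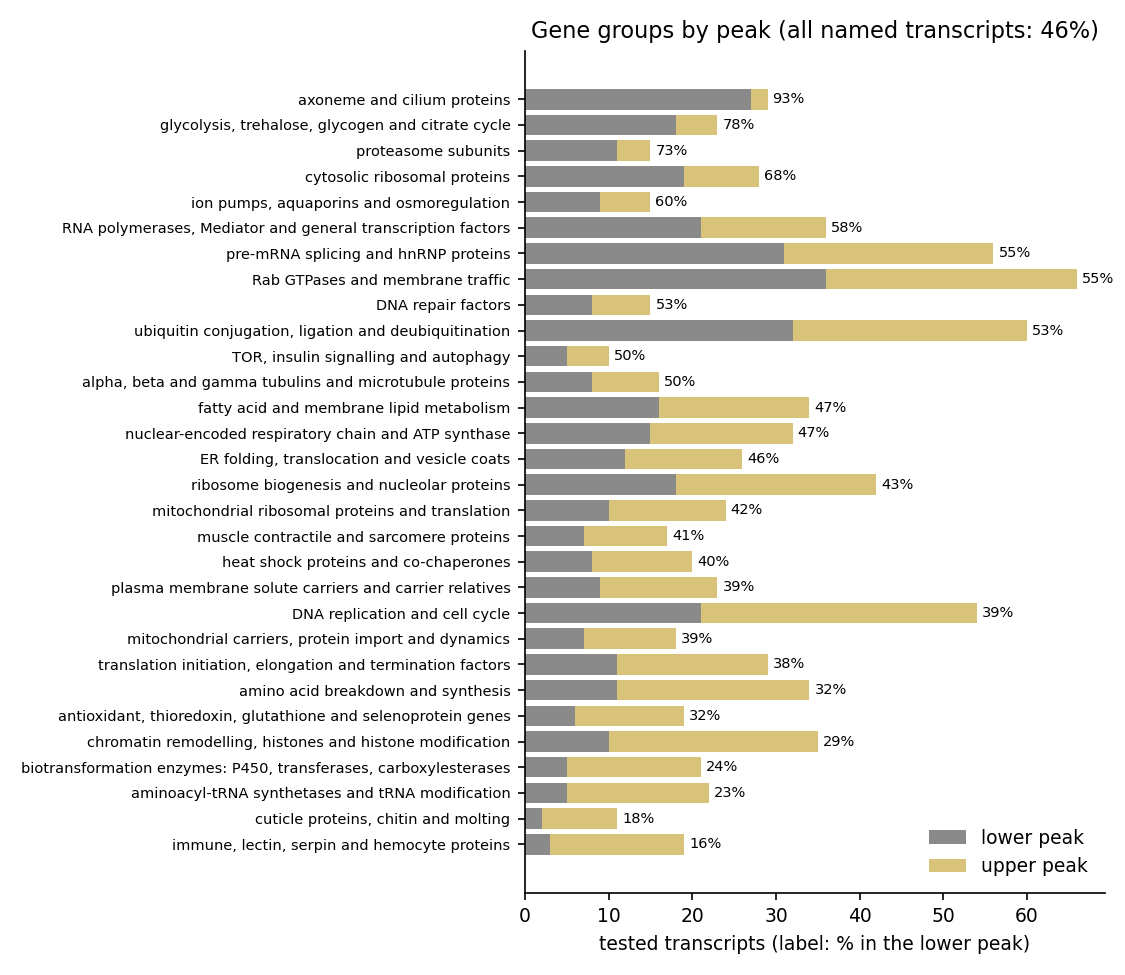
Tested transcripts of each gene group with at least 10, split into lower peak (grey) and upper peak (yellow), with the percentage in the lower peak at the bar end. Cilium proteins (93%), carbohydrate metabolism (78%) and proteasome subunits (73%) lie at the top and immune proteins (16%) and cuticle proteins (18%) at the bottom, against 46% for all named transcripts.

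The groups differed in how they divided between the peaks. Since the peaks are cut on the fold change, these shares describe it and are not tested. Over all named transcripts 9.8% were higher and 45.2% lower, the background against which each count below is to be read. Of 23 transcripts for glycolysis, trehalose, glycogen and the citrate cycle, 18 were lower, 0 higher and 5 did not pass, and 78.3% lay in the lower peak. TKT, the transketolase of the pentose phosphate pathway, fell from 30.2 ± 16.6 to 2.74 ± 0.758 CPM, a log2 fold change of −3.43 (adjusted p = 0.0003). Of 15 proteasome transcripts 11 were lower, 2 higher and 2 did not pass. PSMD11, of the regulatory particle, fell from 17.7 ± 9.07 to 1.81 ± 0.624 CPM (−3.24, adjusted p = 0.000386). For PSMB3, of the core, the authors' deposited table gave a log2 fold change of 1.15 (SE 0.23). That value fell in the bin at 1.25, where the upper peak of that table stood.

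Of 28 cytosolic ribosomal protein transcripts 19 were lower, 3 higher and 6 did not pass. RPS25 fell from 59.1 ± 28.4 to 7.35 ± 0.902 CPM, a log2 fold change of −3.0 (adjusted p = 0.000268) and RpL5 from 59.98 ± 25.7 to 6.90 ± 1.16 CPM (−3.11, adjusted p = 0.000245). The summed level of the list was 1761 to 2665 CPM in warm and 2215 to 2693 CPM in cold pools, and 9 members were in the upper peak. Splicing proteins had 15 higher, 31 lower and 10 not passing of 56. Translation factors had 8 higher, 11 lower and 10 not passing of 29. The background over all named transcripts was again 9.8% higher and 45.2% lower.

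Immune and cuticle genes were mostly in the upper peak. Of 19 immune transcripts 3 were higher, 3 lower and 13 did not pass, and all 3 lower ones were in the lower peak. TOLLIP, an adaptor of Toll signalling, rose from 22.0 ± 4.15 to 38.0 ± 3.25 CPM, a log2 fold change of 0.78 (SE 0.23, adjusted p = 0.0164), though not under upper-peak scaling (0.36, adjusted p = 0.213). Of 11 cuticle and molting transcripts 2 were lower and 9 did not pass. The 2 lower ones, ftz-f1 and Phm, were both in the lower peak, which is treated as possibly not amphipod RNA. ftz-f1, a nuclear receptor of the molting cascade, fell from 19.4 ± 11.5 to 6.40 ± 0.850 CPM (−1.59, SE 0.39, adjusted p = 0.0071). Phm fell from 3.67 ± 1.13 to 0.408 ± 0.670 CPM in the tested transcript (−3.05, adjusted p = 0.015). It entered the list by its symbol with letter case ignored, so its place among molting genes is uncertain.

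Of 21 biotransformation transcripts, 0 were higher, 4 lower and 17 did not pass. Of the 16 in the upper peak, 6 were lower under upper-peak scaling, where the whole upper peak had 3.87%. Both the set and the scale were chosen by the fold change, so this is a description. With the lower peak left out, only 3 lower calls remained over all gene lists together, so calls among these 6 were lost. MGST1, a membrane-bound glutathione transferase, fell from 22.0 ± 10.9 to 1.91 ± 0.353 CPM (−3.49, adjusted p = 0.000258) and belonged to the lower peak. Arr1, an arrestin of the eye, was at 10.4 ± 7.43 and 22.8 ± 12.9 CPM and did not pass. In the authors' deposited table, whose scaling differs, Arr1 (log2 fold change 1.75), Arr2 (1.27) and the opsin OPN4 (2.01) were all called higher.

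Of the most abundant named transcripts PTGES3, MKNK1 and a TNNI1 transcript passed the test. MKNK1, a kinase of the translation factor eIF4E, rose from 949 ± 188 to 1480 ± 176 CPM, a log2 fold change of 0.64 (SE 0.21, adjusted p = 0.0308), with 0.19 under upper-peak scaling (adjusted p = 0.654). Amyrel, an amylase relative, was at 732 ± 91.8 and 1060 ± 164 CPM (adjusted p = 0.0541). A pair of 14-3-3zeta transcripts had log2 fold changes of 0.40 and 0.24 that did not pass and were −0.05 and −0.21 under upper-peak scaling. MBL2, a lectin, varied widely at 1699, 525, 71.7 and 54.3 CPM in warm pools and 442, 782, 601 and 219 CPM in cold ones. MFRP spread as widely, from 81.2 to 1085 CPM in warm pools and 345 to 1631 CPM in cold pools.

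The authors' deposited table also showed 2 peaks, in the bins at −2.25 and 1.25. It called 1255 names higher (24.6%) and 1688 lower (33.1%). For CCT5 it gave a log2 fold change of 2.23, against 1.61 on the TMM scale, and the library factors solved from it were 1.18 to 1.27 at 12 °C and 0.753 to 0.906 at 1.5 °C.

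The same names were then compared in the endemic species. Of 335 names paired in all 3 species, 131 passed the filter, and the interaction of species and temperature (G. lacustris against the mean of both endemics, edgeR, adjusted over the 131) was positive for 20 names (15.3%) and negative for 48 (36.6%). The same name need not mean the same gene in 3 assemblies. All 48 negative names were among the 50 in the G. lacustris lower peak, where its median log2 fold change was −2.85 and those of E. verrucosus and E. cyaneus were −0.02 and 0.01. The lower peak is cut on the same G. lacustris fold change that enters the interaction, so this overlap was largely fixed in advance. Lower-peak names are also treated as possibly not amphipod RNA. IMPDH2, an enzyme of guanine nucleotide synthesis, had −2.92 in G. lacustris, 0.23 in E. verrucosus and −0.12 in E. cyaneus (interaction −2.97, SE 0.40). ACY1, an aminoacylase, had −3.09, 0.26 and −0.06 in the same order (interaction −3.18, SE 0.38).

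Among names of the upper peak, SLC25A36 had 1.33 in G. lacustris, −0.33 in E. verrucosus and 0.18 in E. cyaneus (interaction 1.41, SE 0.34, edgeR adjusted p = 0.000939). SELENOH, a nucleolar selenoprotein, had 0.72, −0.63 and −1.03 (interaction 1.55, SE 0.25). HNRNPLL, a splicing regulator, had 1.61, 0.06 and −0.01 (interaction 1.58, SE 0.39). DDX47, a helicase of ribosome assembly, had 1.31, −0.07 and −0.04 (interaction 1.37, SE 0.45, edgeR adjusted p = 0.0115), and WDR89 had 1.14, 0.59 and −0.28 (interaction 0.99, SE 0.24). These differences carry the TMM position of the upper peak, whose median is 0.41 in G. lacustris.

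**Figure D5:**
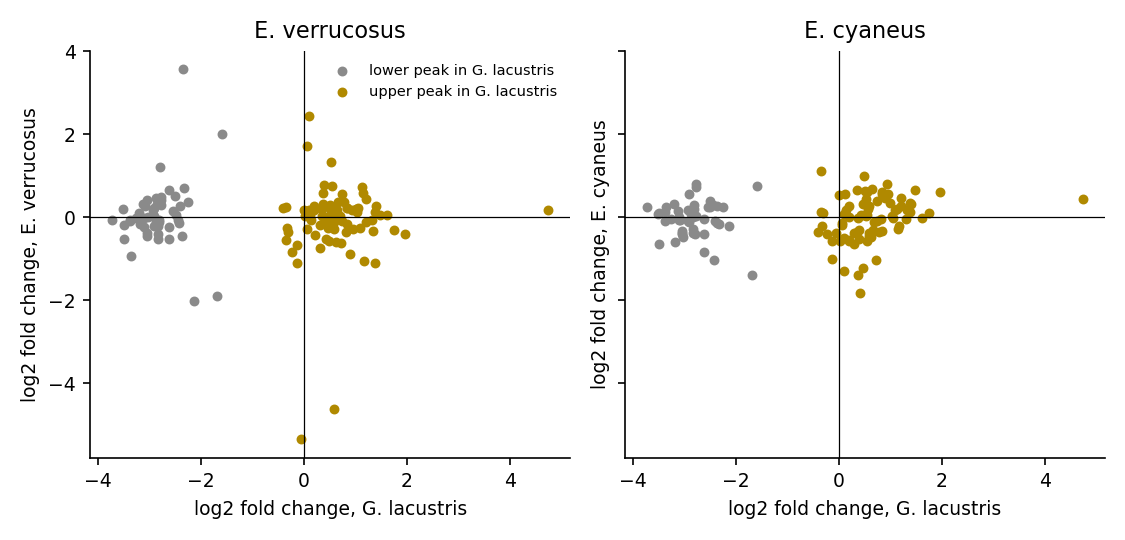
Log2 fold change (1.5 °C over 12 °C) of 131 shared names in G. lacustris (x axes) against E. verrucosus (left) and E. cyaneus (right), coloured by peak in G. lacustris. The 50 lower-peak names centre at −2.85 on the x axes and near 0 on both y axes.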

How the data were processed

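The authors deposited salmon's estimated counts and TPM for each transcript, with lengths. TPM as deposited served no test and only weighted isoform lengths when names were paired. For each gene name, the authors' deposited table lists a mean normalised signal, the log2 fold change and its error, a score from the Wald test, and p-values with and without adjustment. Trinity assembly, redundancy removal, quality filtering and retention of animal-like transcripts are given in the series' design text, and Salmon 1.1.0 and DESeq2 1.26.0 in the submitters' processing notes. Number of series columns not used: 0.

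Estimated counts were rounded. A name was paired with a transcript, isoform set (up to 6 transcripts) or pair when its mean normalised count, under library factors and lengths solved from the table, matched within a relative 1e-12. Means shifted by 1e-05 gave 0 matches. Of the paired names, 2861 rest on 1 transcript.

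Tests used edgeR 4.0.16 (R 4.3.3) with TMM, a minimum count of 10 and minimum total of 15, prior count 0.5, and adjusted p under 0.05. DESeq2 1.42.0 was an alternative. On simulated counts over 27194 transcripts, 93 of 100 transcripts with 4-fold and 100 of 100 with 16-fold changes were recovered, with 11 false calls. For the species interaction, simulated over 800 names, 98 of 100 were recovered with 3 false calls. In the first simulation the changes were few and equally up and down. Neither simulation held a lower peak or its effect on scaling, so the false calls do not measure error in these data.

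Named genes were the 12 highest and 12 lowest called transcripts with both means at or above 1 CPM and groups that do not overlap, up to 4 called members per list, the 10 most abundant, and up to 2 unpaired names per list from the authors' table. 1 transcript that this rule names is not reported here. Further upper-peak, mitochondrial, muscle and shared-species names were picked after their values were seen, as were the cilium list and 67 names dropped from lists by meaning. The members and all lists were chosen with earlier results of these data known. Replicate numbers are not said to pair pools, and same-numbered pools did not deviate together (correlations of −0.08, −0.05, −0.04 and 0.13).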

Additional observations from a re-analysis of the deposited data

Results flagged for a closer look

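In 10 of 144 groups of 4 pools (6.94%) the highest or lowest pool stood apart, with a gap to its neighbour, as a share of the group's range, past Dixon's critical value for 4 samples. Chance gives about 1 in 20 such groups. At 12 °C, replicate 1 was the highest pool for TNNI1 in its most abundant transcript (0.872 of the range), for LDB3 (0.86) and for MGST1 (0.869), and the lowest for snrpd2 (0.848). Replicate 2 at 12 °C was the lowest for the second TNNI1 transcript (0.938). At 1.5 °C, replicate 2 was the highest for 26-29-p (0.915), ND4L (0.889), COX3 (0.876) and ACTC1 (0.84), and replicate 4 was the highest for Phm (0.834).

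The temperature effect under G. lacustris names differed from the mean of both endemics by the interaction test for 68 of 131 names. Of these, 48 were lower-peak names, which are cut on the same fold change and are possibly not amphipod RNA. On the log2 scale the difference was 1.55 for SELENOH, 1.58 for HNRNPLL, 1.41 for SLC25A36, 1.37 for DDX47 and 0.99 for WDR89. It was −3.38 for ERP29, −3.18 for ACY1, −2.97 for IMPDH2 and −2.91 for IDH3B, all in the lower peak. These 9 names were chosen after their values were seen.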

How the results depend on the processing

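The lower peak remained under every setting that kept its transcripts and was checked for peaks, in the bin at −3.25, −2.75 or −2.25. The fit with transcripts summed per name was not checked for peaks. The transcripts at or below the limit numbered 20286 of 61362 without a filter on low counts, 8286 of 27194 with it, and 8322 to 9697 without single pools. The number of higher transcripts (2639) was 7941 with TMM on named transcripts, 741 with TMM on upper-peak transcripts, 264 with the lower peak left out, 4019 with no filter on low counts, and 1951 to 3485 without single pools. The lower transcripts (8185) numbered 282 with the lower peak left out, 13716 with no filter, and 8215 to 9219 without single pools. In the gene lists the 100 higher calls became 240, 29 and 9 under the first 3 of these settings (69 to 135 without single pools), and the 401 lower calls became 3 with the lower peak left out. Of the 12 named transcripts with the largest rises, 6 passed with the lower peak left out and 11 with transcripts summed per name. The settings that use the peaks were chosen after seeing the data and by the outcome.

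With the replicate number as a block, 1975 transcripts were higher and 8016 lower. The numbers did not pair the pools: same-numbered pools correlated at −0.08, −0.05, −0.04 and 0.13 in their deviations.

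Signs turned for 6 transcripts, and apart from the abundant TNNI1 transcript none of them had passed. With TMM on upper-peak transcripts and with the lower peak left out, the log2 fold changes were −0.05 and −0.03 for the first 14-3-3zeta transcript, −0.21 and −0.19 for the second, and −0.24 and −0.23 for Mhc1. Mhc1 ran from −0.17 to 0.64 without single pools. MBL2 was 0.54 with TMM on named transcripts, 0.13 with no filter, 0.02 with transcripts under 0.1 CPM left out, 1.03 with the replicate block, 0.63 in the authors' deposited table, and −0.59 to 1.28 without single pools. The name TNNI1 was 0.05 in the authors' deposited table, and its second most abundant transcript was 0.11 with TMM on named transcripts. The cause was not tested. At a median of 0.771 CPM in the cold pools, lower-peak fold changes rest on few reads at 1.5 °C.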

Other observations

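In the authors' deposited table, 70 pairs of names differed only in letter case. In 35 pairs the names lay on different sides of the sparsest bin (−0.75), in 24 both were below it and in 11 both above. Over all 5094 names 46.3% lay at or below that bin and 53.7% above it, so unrelated names would also often split. Among ribosomal proteins, rpl22 had a log2 fold change of 1.24 and RPL22 one of −2.20, RpL23A had 1.16 and RPL23A −2.52, and RpS18 had 1.06 and rps18 −1.98. The higher name was also the more abundant in each of these, with mean normalised counts of 588 against 114.1 for rpl22, 4792 against 49.6 for RpL23A and 3570 against 215 for RpS18. The same held for RpL8 and RpS27 against their case variants, but not for RpL35 or rps27a. RpL35 had 2.24 at a mean of 0.667 and RPL35 −2.35 at 16.4. RpS27A had −0.35 at 6.45 and rps27a −2.14 at 464. TOP1, a DNA topoisomerase, had 1.55 and top1 −1.74. Whether such names stand for genes of different organisms, paralogs or fragments of a gene was not tested.

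Across all tested transcripts, Spearman's rho between pools, a description with no test, was 0.743 to 0.885 within 12 °C, 0.923 to 0.935 within 1.5 °C and 0.419 to 0.763 between temperatures. Over upper-peak transcripts alone it was 0.819 to 0.905, 0.915 to 0.931 and 0.825 to 0.896. The upper peak leaves out transcripts by their fold change, so the closer likeness between temperatures was largely fixed in advance.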
